A study of Mus musculus with 4 samples.

Results

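Complement is a cascade of plasma proteins and cell-surface receptors, and macrophages make several of its parts. The classical route starts when C1q, built from the products of C1qa, C1qb and C1qc, binds immune complexes or dying cells. The alternative route runs through C3, factor B (Cfb) and properdin (Cfp), and the fragments C3a and C5a signal through the receptors C3ar1 and C5ar1. The 8 genes described here, C1qa, C1qb, C1qc, C3, Cfb, Cfp, C3ar1 and C5ar1, were taken by NCBI gene identifier from 15935 identifiers listed in any library, and all 8 were listed in every library.

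RNA was sequenced from bone marrow-derived macrophages of C57BL/6 mice, grown for 5 days in M-CSF-conditioned medium. The KO cells carried a floxed Ezh2 gene (ezh2f/f) with LysM-Cre, which acts in myeloid cells, and are labelled EZH2-/-. The WT cells are labelled wild type, and the labels give them neither the Cre nor the floxed allele. Ezh2 encodes a histone methyltransferase of Polycomb repressive complex 2. The groups were KO given LPS for 2 h (KO LPS), untreated KO (KO NT), WT given LPS for 2 h (WT LPS) and untreated WT (WT NT). LPS is a bacterial ligand of Toll-like receptor 4. Each group had 1 library, so no difference has a replicate check and no test was run. Genotype or treatment cannot be told apart from any other difference between the libraries.

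Total expected counts per library ran from 5237782 to 5678451. Ezh2 stood at 1.29 FPKM in KO LPS, 2.06 in KO NT, 2.52 in WT LPS and 2.84 in WT NT, from 18, 31, 38 and 43 counts. The labels do not say which Ezh2 exons are floxed, so reads from outside the deleted part may be among these. With so few counts, how complete the deletion was cannot be read from these values. FPKM scales fragments by transcript length and library size, so levels of different genes can be compared. All 12 macrophage markers, such as Adgre1 and Csf1r, were listed in each library. The erythroid markers Hbb-bs and Hbb-bt, the T cell markers Cd3e and Cd3g and the hepatocyte markers Apoa1 and Ttr were at 0 in all 4. Other markers on these lists were not all at 0. The T and NK cell list summed to between 0.14 FPKM (WT LPS) and 0.67 (KO LPS), and the erythroid list to at most 0.33 (WT LPS). The lists of erythroid, T and NK cell, B cell, mast cell and dendritic cell markers summed to at most 4.08 FPKM in any library. The neutrophil markers, described further below, summed to between 401 FPKM (WT NT) and 677 (KO NT). In bulk RNA, fewer cells of a type and less RNA per cell cannot be told apart. Ratios below are ratios of FPKM with an exact 95% interval from the counts, which covers counting error only. Log2 folds are on the log2(FPKM + 1) scale, which understates the change of low genes.

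The 3 C1q genes were the most abundant of the 8 in every library. C1qb had 1843 FPKM in KO LPS, 2166 in KO NT, 1627 in WT LPS and 1710 in WT NT. It ranked between 15 and 27 among the 9218 genes of at least 50 counts in 1 library. C1qc had 1061 FPKM in KO LPS, 1359 in KO NT, 943 in WT LPS and 1156 in WT NT. C1qa had 815 FPKM in KO LPS, 1018 in KO NT, 629 in WT LPS and 746 in WT NT. For all 3, and for Cfp and C3ar1, KO NT was the highest library and WT LPS the lowest in FPKM as deposited. This order depends on how libraries are scaled, and KO NT was not the highest with median-ratio scaling.

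The receptors came next. C3ar1, the receptor of C3a, had 319 FPKM in KO LPS, 410 in KO NT, 282 in WT LPS and 394 in WT NT. C5ar1, the receptor of C5a that attracts and activates myeloid cells, had 427 FPKM in KO LPS, 246 in KO NT, 491 in WT LPS and 284 in WT NT. C5ar1 was therefore above C3ar1 in both LPS libraries and below it in both NT libraries.

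The alternative-route genes were lowest. Cfp, which encodes properdin, the protein that stabilises the alternative convertase, had 174 FPKM in KO LPS, 205 in KO NT, 149 in WT LPS and 180 in WT NT. C3, the protein that all routes cleave, had 131 FPKM in KO LPS, 91.8 in KO NT, 190 in WT LPS and 156 in WT NT. Cfb, the protease component of the alternative convertase, had 21.7 FPKM in KO LPS, 16.4 in KO NT, 37.8 in WT LPS and 32.3 in WT NT, from 316, 258, 592 and 509 counts. C3 stood above Cfp in WT LPS and below it in the other 3 libraries. In FPKM as deposited, both WT libraries stood above both KO libraries for C3 and Cfb, and for no other member.

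**Figure D1:**
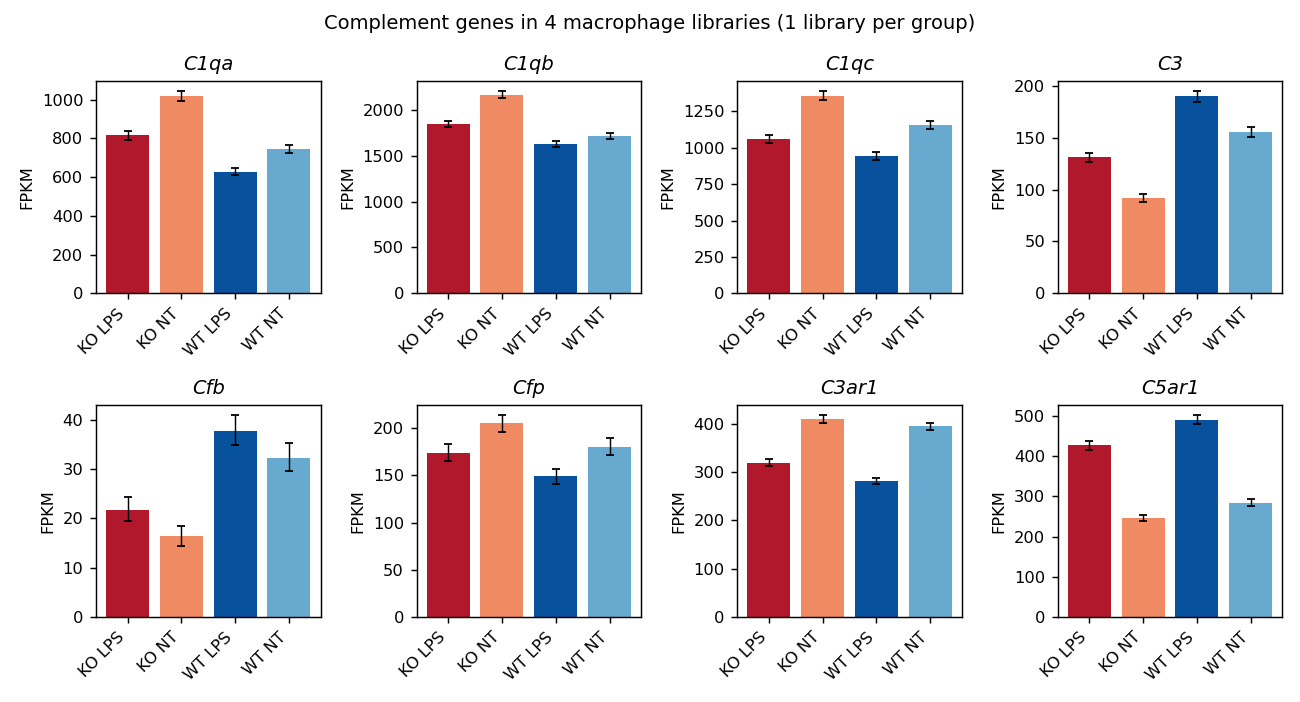
FPKM of the 8 genes (vertical axes from 0, each with its own scale) in the 4 libraries, KO in reds and WT in blues; bars are single libraries and error bars exact 95% Poisson intervals of the counts. In FPKM as deposited, the C1q genes are highest in KO NT, C3 and Cfb are lowest in KO NT, and C5ar1 is higher in both LPS libraries.

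In untreated cells the KO library held less C3 and Cfb and more C1q than the WT library. Cfb was at 16.4 FPKM in KO NT and 32.3 in WT NT, a ratio of 0.507 (interval 0.435 to 0.591). C3 was at 91.8 FPKM in KO NT and 156 in WT NT, a ratio of 0.590 (0.563 to 0.619). C1qa was 1.36 times as high in KO NT as in WT NT (1.31 to 1.42), C1qb 1.27 times (1.23 to 1.30) and C1qc 1.18 times (1.14 to 1.21). Cfp was higher in KO NT with a ratio of 1.14 (1.07 to 1.22), and C5ar1 lower with a ratio of 0.865 (0.826 to 0.905). C3ar1 was nearly level, at 1.04 (1.01 to 1.07).

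No member was 2-fold apart between KO NT and WT NT, where 0.919% of 10990 genes of at least 1 FPKM passed 2-fold upward in KO and 0.883% downward. C3 and Cfb were at least 1.5-fold lower, as were 3.06% of all genes. A fold as low as that of Cfb (log2 -0.94) or lower was found for 1.01% of genes, and as low as that of C3 (log2 -0.75) for 1.75%. At the other end, 6.82% of genes had a fold as high as C1qa (log2 0.45) or higher. The intervals of 5 members lay above 1 and of 3 below, against 14.1% and 11.6% of all genes. With median-ratio or TMM scaling the interval of C3ar1 held 1, which left 4 above. The members had 258 to 12804 counts per library here, and a deeply counted gene has a narrow interval that more easily leaves out 1. The median log2 fold was 0.12 over the members and 0.02 over all genes.

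After 2 h of LPS the same members stood above or below WT. Cfb was at 21.7 FPKM in KO LPS and 37.8 in WT LPS, a ratio of 0.574 (0.5 to 0.66), and C3 at 131 FPKM in KO LPS and 190 in WT LPS, a ratio of 0.690 (0.661 to 0.719). C5ar1 was again lower, at a ratio of 0.869 (0.839 to 0.901). C1qa was 1.30 times as high in KO LPS as in WT LPS (1.24 to 1.35), C1qb 1.13 times (1.10 to 1.17), C1qc 1.12 times (1.08 to 1.17), Cfp 1.17 times (1.09 to 1.26) and C3ar1 1.13 times (1.10 to 1.17). The comparisons of KO with WT in the 2 states share no library. Over both, Cfb was at least 1.5-fold lower in KO in each state, as were 103 of 11320 genes (0.910%).

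Again no member was 2-fold apart, where 1.45% of 10375 genes passed 2-fold upward in KO and 1.12% downward. Cfb alone was at least 1.5-fold lower, as were 3.34% of genes, and 1.95% of genes had a log2 fold as low as its -0.77. For C3 (log2 -0.53) that share was 4.07%. The intervals of 5 members lay above 1 and of 3 below, against 21.2% and 9.50% of all genes. The median gene was itself slightly higher in KO LPS, at a log2 fold of 0.08, and C1qb, C1qc and C3ar1 lay only 0.09 to 0.10 above it.

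**Figure D2:**
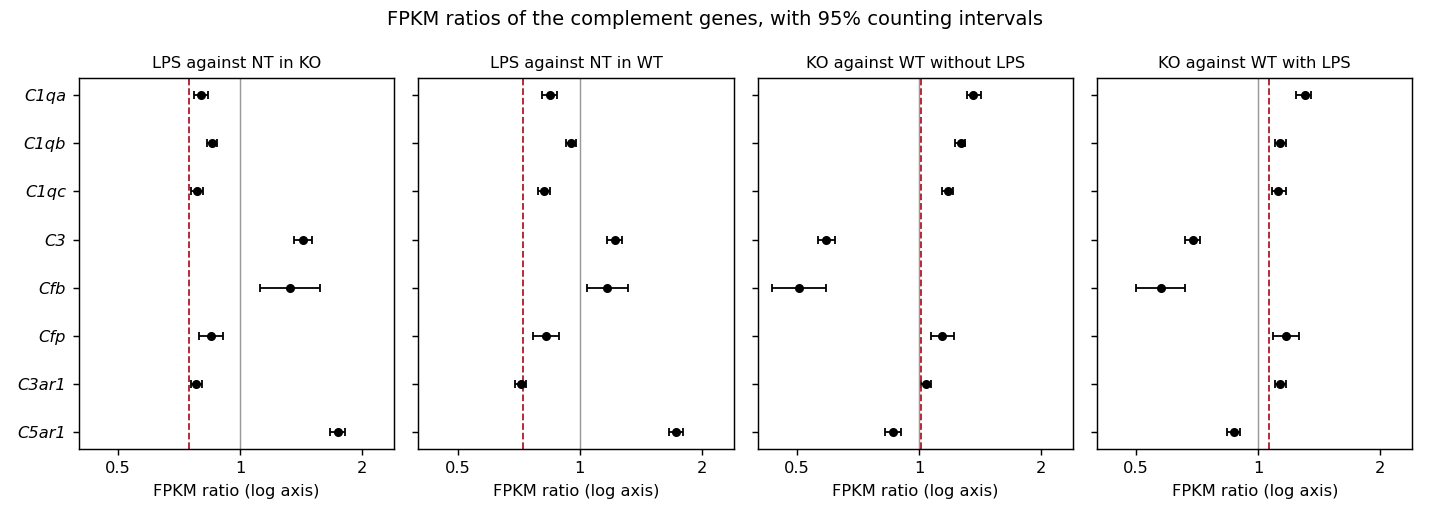
FPKM ratios (log horizontal axes) of the 8 genes in the 4 comparisons; points are ratios of 2 single libraries, bars exact 95% counting intervals, the grey line a ratio of 1 and the dashed line the fold of the median gene. C3 and Cfb lie left of 1 in both comparisons of KO with WT, and C5ar1 lies furthest right in both comparisons of LPS with NT.

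Markers of other cells also differed between the genotypes. The 12 neutrophil markers summed to 677 FPKM in KO NT and 401 in WT NT, and to 609 in KO LPS and 439 in WT LPS. Of those of at least 1 FPKM, 9 of 11 were higher in KO without LPS and 11 of 12 with LPS, and Ly6g was at 0 in KO NT. The 7 fibroblast and stromal markers were low and summed to 4.16 FPKM in KO NT and 6.78 in WT NT, and to 3.62 in KO LPS and 7.92 in WT LPS, with none at 0. Of those of at least 1 FPKM, 3 of 3 were lower in KO without LPS and 4 of 5 with LPS. Col1a1, for example, was at 1.06 FPKM in KO NT and 2.29 in WT NT. The 12 macrophage markers summed to 3569 FPKM in KO NT and 3372 in WT NT, and to 3849 in KO LPS and 3808 in WT LPS. Of those of at least 1 FPKM, 8 of 12 were higher and 4 lower in KO without LPS, and 6 of 11 were higher and 5 lower with LPS. Adgre1 (F4/80), for example, was at 557 FPKM in KO NT and 407 in WT NT, and Cd68 at 1331 FPKM in KO NT and 1391 in WT NT. The part of these cells in the C1q, Cfp, C3 and Cfb differences was not tested. The hepatocyte markers Apoa1 and Ttr were at 0 in every library, and Alb had 1 count, in KO NT.

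**Figure D3:**
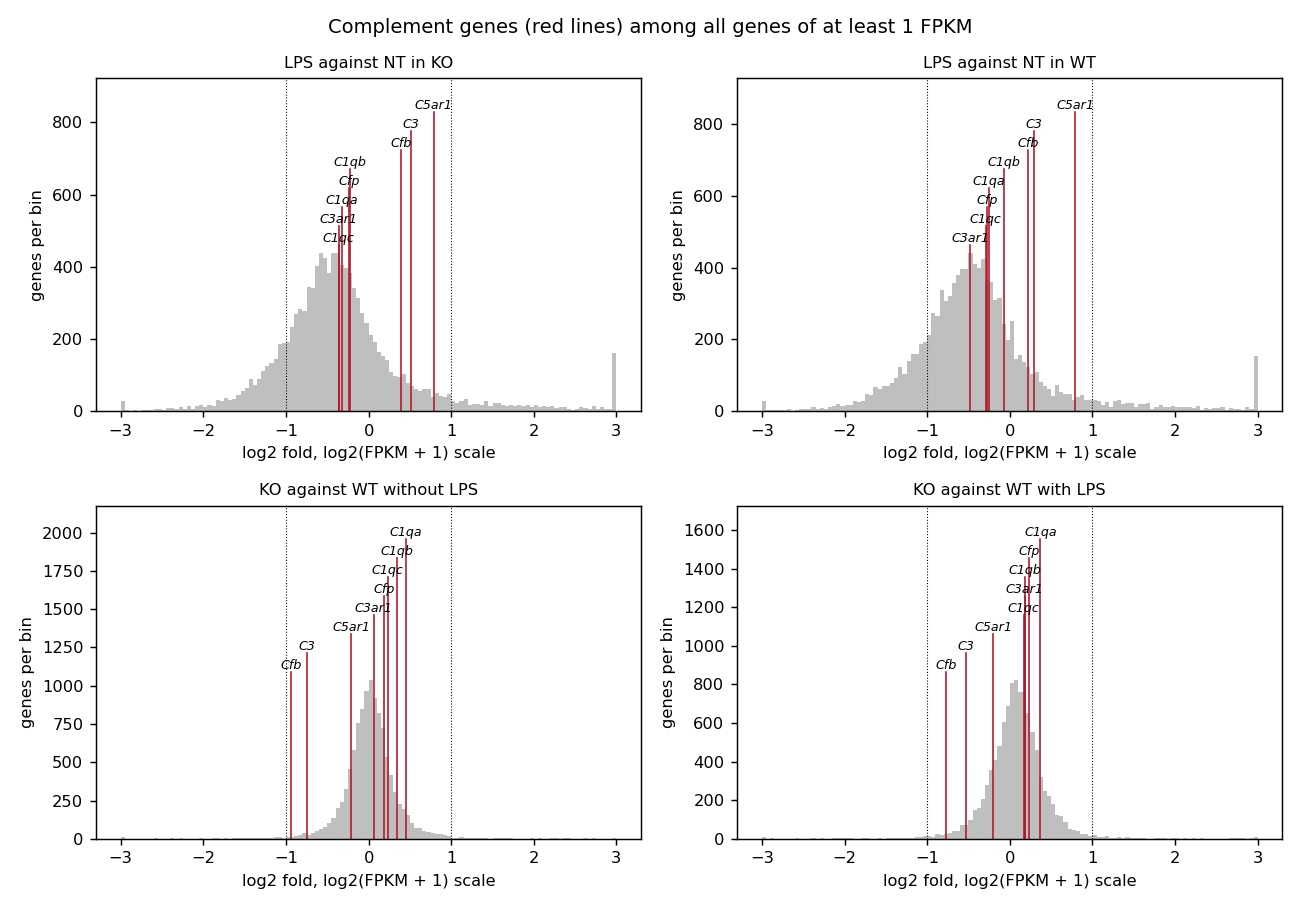
Distribution of log2 folds of all genes of at least 1 FPKM (grey, genes per bin; the end bins hold everything beyond 3 in size) with the 8 genes as red lines and 2-fold as dotted lines. In both comparisons of KO with WT, Cfb and C3 lie in the lower tail; in both comparisons of LPS with NT, C5ar1 lies in the upper tail, short of 2-fold.

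LPS for 2 h was accompanied by higher C5ar1, C3 and Cfb in both genotypes. C5ar1 was 1.74 times as high in KO LPS as in KO NT (1.66 to 1.81) and 1.73 times as high in WT LPS as in WT NT (1.66 to 1.80). C3 was 1.43 times as high in KO (1.36 to 1.5) and 1.22 times in WT (1.17 to 1.27). Cfb was 1.33 times as high in KO (1.12 to 1.57) and 1.17 times in WT (1.04 to 1.32).

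The other 5 members were lower with LPS on the deposited scale, by less than 1.5-fold. The ratios of LPS to NT in KO were 0.801 for C1qa, 0.851 for C1qb, 0.781 for C1qc, 0.849 for Cfp and 0.779 for C3ar1. In WT they were 0.843 for C1qa, 0.951 for C1qb, 0.816 for C1qc, 0.825 for Cfp and 0.715 for C3ar1. These values need the shift of the whole library beside them. The median gene was lower with LPS too, at a log2 fold of -0.42 in KO and -0.46 in WT. With libraries scaled by their median ratio, the log2 folds of the C1q genes, Cfp and C3ar1 turned positive in KO, from 0.07 to 0.19, and those of the C1q genes and Cfp in WT, from 0.19 to 0.41. Relative to the median gene, C5ar1 was 2.31-fold higher in KO and 2.37-fold higher in WT, C3 1.90-fold and 1.68-fold, and Cfb 1.74-fold and 1.60-fold. Whether C1q, Cfp or C3ar1 RNA per cell went down with LPS cannot be read from these values.

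With LPS, 6.61% of 11069 genes passed 2-fold upward in KO and 15.1% downward. In WT these shares were 6.41% and 17.2% of 10972 genes. Of the genes past 2-fold, 30.5% were thus higher in KO and 27.2% in WT, but 58.8% and 56.0% with median-ratio scaling. No member passed 2-fold on this scale in either genotype. C5ar1 alone was at least 1.5-fold higher, as were 10.3% of genes in KO and 9.52% in WT. The intervals of 3 members lay above 1 and of 5 below in each genotype. Over all genes, 14.5% lay above and 57.1% below in KO, and 13.3% above and 60.4% below in WT. The median log2 fold of the members was -0.23 in KO and -0.16 in WT.

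The LPS responses of the genotypes were then set side by side, the response in KO divided by that in WT. For C3 this quotient was 1.168, with an exact conditional interval of 1.096 to 1.245. For C1qb it was 0.895 (0.861 to 0.930), and for C3ar1 1.091 (1.044 to 1.139). The intervals of C1qa, C1qc, Cfp, C5ar1 and Cfb held 1, with C5ar1 at 1.005 (0.948 to 1.065) and Cfb at 1.132 (0.920 to 1.394). These quotients depend on how libraries are scaled, and their intervals were not recomputed under other scalings. Which of them hold 1 may therefore change. Those of C1qa (0.896 to 1.007) and C1qc (0.910 to 1.005) end close to 1, and that of C3ar1 begins close to 1, at 1.044. On the log2 scale all 8 differences lay between -0.16 and 0.22, where the median gene was at 0.05. None was 2-fold apart, against 1.90% of 11320 genes higher and 1.42% lower in KO.

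Ratios of members within a library do not depend on how libraries are scaled. C5ar1 over C3ar1 was 1.34 in KO LPS, 0.601 in KO NT, 1.74 in WT LPS and 0.722 in WT NT. LPS thus came with a ratio 2.23 times as high in KO (2.11 to 2.35) and 2.42 times as high in WT (2.30 to 2.54), and the ratio was lower in KO than in WT in both states, by quotients of 0.767 with LPS (0.731 to 0.805) and 0.832 without (0.789 to 0.878). C3 over C1qb was 0.0711 in KO LPS, 0.0424 in KO NT, 0.117 in WT LPS and 0.0910 in WT NT. In KO that ratio was 0.609 times the WT value with LPS (0.579 to 0.640) and 0.466 times without (0.441 to 0.492). Since C3 was lower and C1qb higher in KO, this quotient restates both differences.

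Cfb and C3 kept closer to each other than C5ar1 and C3ar1 or C3 and C1qb did. Cfb had only 258 to 592 counts per library, which widens the intervals given next. Cfb over C3 was 0.166 in KO LPS, 0.178 in KO NT, 0.199 in WT LPS and 0.208 in WT NT. The quotient of LPS over NT was 0.930 in KO (0.780 to 1.11) and 0.959 in WT (0.845 to 1.09), and both intervals held 1. Between the genotypes it was 0.833 with LPS (0.720 to 0.963) and 0.859 without (0.731 to 1.01).

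**Figure D4:**
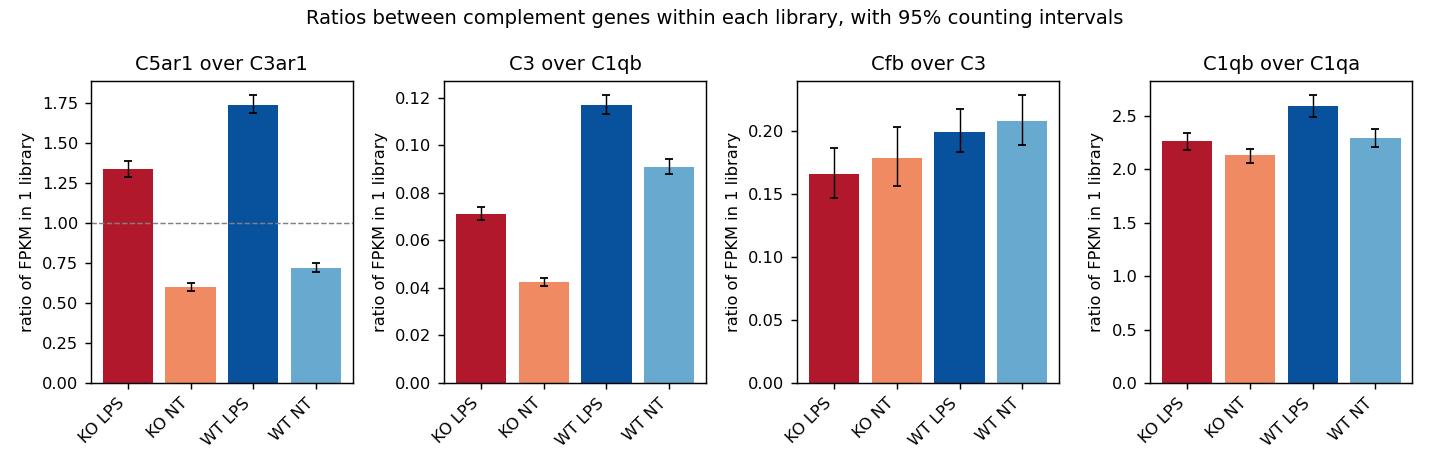
Ratios of FPKM of 2 genes within each library (vertical axes from 0) with exact 95% counting intervals, KO in reds and WT in blues; the dashed line in the left panel marks equal levels. C5ar1 exceeds C3ar1 in the LPS libraries only, and C3 over C1qb is lower in both KO libraries than in both WT libraries.

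The C1q genes sit side by side on chromosome 4 in GRCm38.p6: C1qb at chr4:136880126-136886200, C1qc at chr4:136889801-136892936 and C1qa at chr4:136895916-136898844, with 3600 and 2979 bases between neighbours. C1q is assembled from the 3 chains in equal numbers. Their RNA levels were not equal: C1qb made up 49.6% of the summed C1q FPKM in KO LPS, 47.7% in KO NT, 50.9% in WT LPS and 47.4% in WT NT. C1qa had 19.7% to 22.4% and C1qc 28.5% to 32.0%. C1qb over C1qa was 2.26 in KO LPS, 2.13 in KO NT, 2.59 in WT LPS and 2.29 in WT NT, with KO lower than WT by quotients of 0.874 with LPS (0.830 to 0.920) and 0.928 without (0.885 to 0.972). C1qc over C1qa was 1.3 in KO LPS, 1.34 in KO NT, 1.5 in WT LPS and 1.55 in WT NT. It was lower in KO both with LPS, by a quotient of 0.868 (0.820 to 0.919), and without, by 0.862 (0.819 to 0.906).

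These genes share a locus and, in FPKM as deposited, their highest and lowest library. The RefSeq promoters of C1qb and C1qc (GRCm38.p6, minus strand, 250 bases before to 50 after the start) are therefore shown, at chr4:136886151-136886450 and chr4:136892865-136893164. The table of promoters matched 6 of the 8 members. Capitals mark matches to 5 motifs searched on both strands: PU.1 (GAGGAA), C/EBP (TTNNGNAA), GAS (TTCNNNGAA), and, by name, the NF-kB consensus and the ISRE core.
C1qb: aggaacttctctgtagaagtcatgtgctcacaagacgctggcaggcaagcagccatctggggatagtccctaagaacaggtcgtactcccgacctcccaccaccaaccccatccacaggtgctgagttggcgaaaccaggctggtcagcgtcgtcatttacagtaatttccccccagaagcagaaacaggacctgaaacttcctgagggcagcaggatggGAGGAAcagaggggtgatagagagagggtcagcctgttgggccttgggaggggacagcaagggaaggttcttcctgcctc
C1qc: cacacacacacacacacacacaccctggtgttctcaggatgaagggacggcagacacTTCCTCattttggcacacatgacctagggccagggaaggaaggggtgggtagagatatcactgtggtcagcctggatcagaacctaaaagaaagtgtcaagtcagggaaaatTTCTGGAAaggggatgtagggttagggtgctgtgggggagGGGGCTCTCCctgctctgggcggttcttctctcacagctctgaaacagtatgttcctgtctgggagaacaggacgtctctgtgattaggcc
Positions count from 0 at the start site. C1qb had a PU.1 match from -30 to -25. C1qc had a PU.1 match on the opposite strand from -193 to -188, a C/EBP match from -81 to -74 and an NF-kB match from -41 to -32. On the minus strand the C1qc gene begins at base 136892936, upstream of the start site of its window. The C1qc positions thus count from a start site inside the gene. Of all 32851 promoters of this length, 28.3% held the PU.1 letters, 40.7% C/EBP, 8.46% NF-kB, 8.30% GAS and 3.44% ISRE. A match describes these letters and is no evidence of binding.

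C3 lies on chromosome 17 (chr17:57203967-57228136), as does Cfb (chr17:34856374-34862514). Each overlaps a microRNA gene, Mir6978 in C3 and Mir6972 in Cfb. The C3 promoter (chr17:57228087-57228386, minus strand) is shown because C3 differed between the genotypes in both states and was higher with LPS.
C3: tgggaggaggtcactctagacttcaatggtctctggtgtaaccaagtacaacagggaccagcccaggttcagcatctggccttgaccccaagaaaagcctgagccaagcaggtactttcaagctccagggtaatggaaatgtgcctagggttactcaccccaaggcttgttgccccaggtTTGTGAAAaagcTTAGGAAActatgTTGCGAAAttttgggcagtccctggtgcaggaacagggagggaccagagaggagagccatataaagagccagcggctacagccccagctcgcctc
C/EBP letters matched at 3 places, from -70 to -63, from -58 to -51 and from -45 to -38, the last on both strands. No other of the 5 motifs matched there.

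The receptor genes C3ar1 (chr6:122847140-122856157) and C5ar1 (chr7:16246743-16259540) are shown next to each other because their RNA parted with LPS. Their promoters, both on the minus strand, lie at chr6:122856108-122856407 and chr7:16259289-16259588.
C3ar1: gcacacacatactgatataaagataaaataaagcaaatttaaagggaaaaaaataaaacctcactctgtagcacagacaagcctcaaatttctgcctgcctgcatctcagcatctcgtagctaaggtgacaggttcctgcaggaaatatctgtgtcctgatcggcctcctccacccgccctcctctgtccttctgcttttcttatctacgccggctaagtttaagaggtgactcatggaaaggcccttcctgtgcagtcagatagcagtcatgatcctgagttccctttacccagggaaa
C5ar1: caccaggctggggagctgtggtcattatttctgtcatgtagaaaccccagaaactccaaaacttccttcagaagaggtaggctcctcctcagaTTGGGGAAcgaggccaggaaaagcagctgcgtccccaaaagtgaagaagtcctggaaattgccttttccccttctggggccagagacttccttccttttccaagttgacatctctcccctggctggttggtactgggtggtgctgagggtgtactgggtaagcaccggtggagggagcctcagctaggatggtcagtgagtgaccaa
The C5ar1 window held a C/EBP match from -157 to -150, and the C3ar1 window none of the 5 motifs. On the minus strand the C5ar1 gene begins at base 16259540, which lies within this window. The window thus belongs to a start site inside the gene, and its C/EBP match lies in the gene span.

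For each member, the genes of at least 50 counts whose centred log2(FPKM + 1) profiles over the 4 libraries lay nearest were listed. Nearest to C3 were Cyp51, Hsd17b7 and Sc5d, at Euclidean distances of 0.075, 0.10 and 0.13, and nearest to Cfb were Srxn1, Mlkl and Cyp51, at 0.12, 0.12 and 0.16. Cyp51, near to both, had 39.3 FPKM in KO LPS, 27.8 in KO NT, 59.5 in WT LPS and 50.3 in WT NT. C5ar1 lay nearest to Mocs1, Apbb3 and Slco3a1 (0.073 to 0.080). The nearest gene to Cfp was the mannose receptor gene Mrc1 (0.017), to C1qa Ing2 (0.033), to C1qb Rps9 (0.023), to C1qc Kdm5a (0.024) and to C3ar1 Dhx38 (0.014). Among the members themselves the closest pair was C1qc and Cfp (0.087), while C3 and Cfb were 0.23 apart and C1qa and Cfb 1.40. With 4 points per gene, many genes lie near the flatter profiles.

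Most other genes of the cascade were at or near 0. Of 51 other complement genes looked for, 36 were listed in any library and 18 reached 1 FPKM. Of the 7 terminal pathway genes only C8g reached 1 FPKM, and C5 (Hc), C7 and C8b were not listed, which allows up to 0.528 to 0.573 CPM (counts scaled to library size) per library. The adipsin gene Cfd, which encodes the protease that activates factor B, was not listed either. Among the 7 other classical pathway genes C1ra alone reached 1 FPKM, with 3.93 in KO LPS, 2.86 in KO NT, 3.78 in WT LPS and 3.05 in WT NT. The neighbour of Cfb, C2, lies 87 bases away, and had 6, 9, 7 and 3 counts in KO LPS, KO NT, WT LPS and WT NT.

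Regulators of complement were led by Cr1l (Crry), a rodent membrane inhibitor of the convertases, with 41.9 FPKM in KO LPS, 41.4 in KO NT, 35.3 in WT LPS and 34.9 in WT NT. It was 1.19 times as high in KO in both states (1.02 to 1.38 in each) on the deposited scale. These intervals begin close to 1 and were not recomputed under other scalings. With LPS the median gene was itself 1.06 times as high in KO. Cd59a, which blocks the membrane attack complex, had 4.27 FPKM in KO LPS, 5.87 in KO NT, 2.29 in WT LPS and 3.23 in WT NT, with KO to WT ratios of 1.86 with LPS (1.09 to 3.28) and 1.82 without (1.16 to 2.88). Cd59a has a close relative, Cd59b, that can share reads, and its expected counts are not whole in some libraries.

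Among other receptors, Itgam and Itgb2, the chains of complement receptor 3, differed from each other. Itgam had 135 FPKM in KO LPS, 161 in KO NT, 99.0 in WT LPS and 117 in WT NT, a KO to WT ratio of 1.36 with LPS (1.29 to 1.43) and 1.37 without (1.31 to 1.44). Itgb2 had 246 FPKM in KO LPS, 299 in KO NT, 266 in WT LPS and 313 in WT NT, with ratios of 0.925 with LPS (0.885 to 0.967) and 0.955 without (0.918 to 0.993). Cd93, once described as a C1q receptor, had 110 FPKM in KO LPS, 151 in KO NT, 77.3 in WT LPS and 131 in WT NT. C5ar2, the second C5a receptor, went the other way from C5ar1 with LPS: 1.78 FPKM in KO LPS, 5.11 in KO NT, 2.47 in WT LPS and 4.87 in WT NT, LPS to NT ratios of 0.348 in KO (0.225 to 0.520) and 0.507 in WT (0.350 to 0.722). C1qbp, a mitochondrial protein named for binding C1q, ran from 36.4 to 48.0 FPKM, and Calr, calreticulin, from 320 to 451. In the lectin pathway, Fcna (ficolin A) had 8.06 FPKM in KO LPS, 15.0 in KO NT, 8.45 in WT LPS and 10.3 in WT NT, and Colec12 ran from 18.5 to 21.3.

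Of these other genes, 2 of 18 measured were at least 2-fold lower with LPS in KO (C5ar2 and the lectin pathway protease gene Masp2). In WT 2 of 17 were (C8g and Masp2), and none was higher in either genotype. Over all genes, 15.1% were 2-fold lower in KO and 17.2% in WT, and 6.61% and 6.41% were higher. Masp2 had 0.99 FPKM in KO LPS, 3.50 in KO NT, 1.27 in WT LPS and 4.01 in WT NT. Between KO and WT, 0 of 17 passed 2-fold without LPS, and 2 of 18 were higher in KO with LPS. These were C8g, with 6 counts in KO LPS and 1 in WT LPS, and Cd59b, with 5.11 counts in KO LPS and 0 in WT LPS. Over all genes, 0.919% passed 2-fold upward in KO and 0.883% downward without LPS, and 1.45% and 1.12% with LPS. C1ra, C2, Masp2, C8g and Cd59b were named after their values were seen. The median log2 folds were -0.28 with LPS in KO, -0.26 with LPS in WT, 0.20 for KO over WT without LPS and 0.07 with LPS, beside -0.42, -0.46, 0.02 and 0.08 over all genes.

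**Figure D5:**
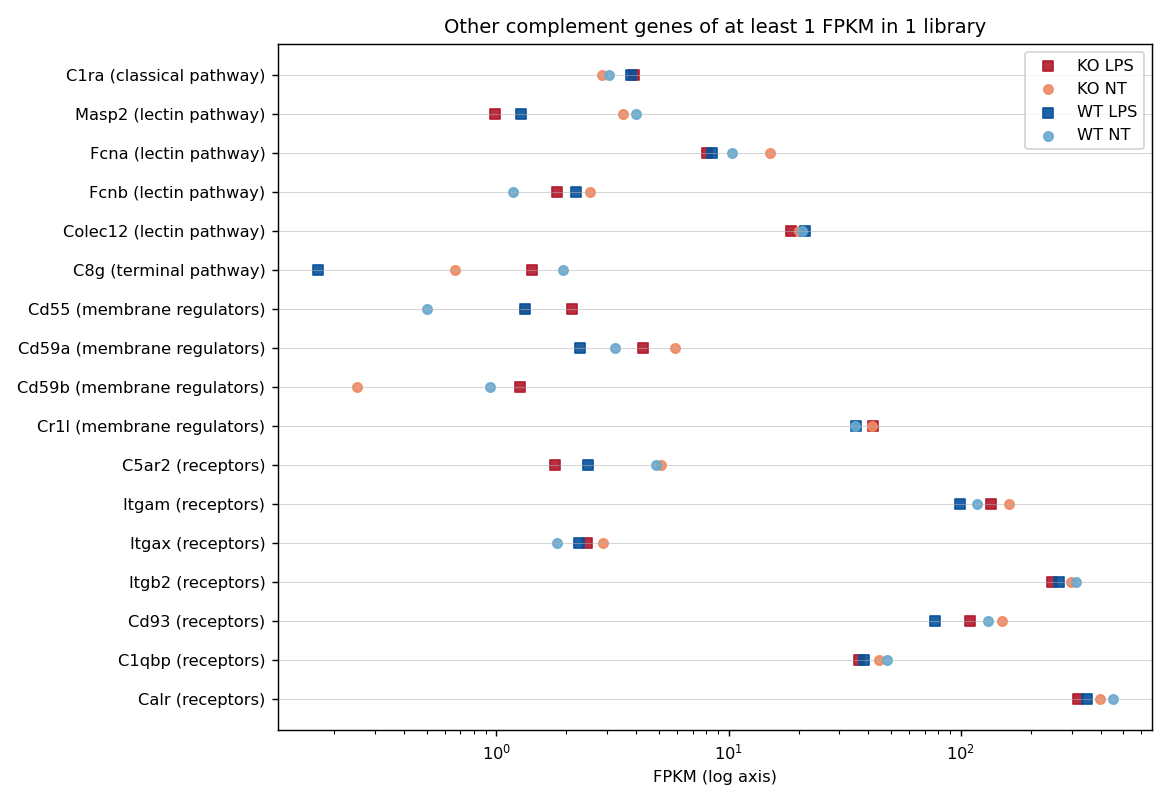
FPKM (log axis) of 17 of the 18 other complement genes that reached 1 FPKM, with squares for LPS and circles for NT libraries, KO in reds and WT in blues; a library at 0 has no point. Masp2 and C5ar2 are lower in both LPS libraries, and Cd59a is higher in KO than in WT in each state.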

How the data were processed

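Total RNA from bone marrow-derived macrophages was sequenced on an Illumina HiSeq, 1 library per group, and groups were taken from the sample titles. The submitters' processing notes name Bowtie, RSEM and the mm10 genome. Tool versions, annotation and strand setting were not given in the sources used here. The authors deposited, per gene, an RSEM expected count (an estimated number of reads that need not be whole) and an FPKM value scaled by transcript length and library size. A gene missing from a table was set to 0.

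Gene names and positions are those of RefSeq (GRCm38.p6), whose table matched 15897 of 15935 identifiers. The fold of a gene was its difference in log2(FPKM + 1), taken where either library reached 1 FPKM, and 2-fold was the size rule. Intervals of FPKM ratios were Clopper-Pearson intervals on the 2 expected counts, rounded to whole numbers. Quotients of ratios have exact conditional odds ratio intervals (scipy 1.17.1). Amplified reads are not separate molecules, so intervals and the floor of 3 counts cover counting error only. edgeR 4.0.16 gave TMM factors. No test was run, and the interval code was tested on simulated data. Alternatives were other pseudocounts, filters, scalings and size rules. All members were named with values, other complement genes if they reached 5 FPKM, and 3 nearest genes per member were sought. A complement gene and a marker are counted but not reported here by name. The members and lists were chosen with earlier results of these data known.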

Additional observations from a re-analysis of the deposited data

How the results depend on the processing

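The 192 member folds were recomputed with pseudocounts of 0.1 and 5, equal sums, median-ratio scaling, and CPM without and with TMM factors: 173 kept their direction. In the comparisons of KO with WT none turned. With LPS, 19 turned, under median-ratio or TMM scaling. Under the median ratio the log2 folds in KO became 0.11 (C1qa), 0.19 (C1qb), 0.07 (C1qc), 0.07 (C3ar1) and 0.19 (Cfp), and in WT 0.23 (C1qa), 0.41 (C1qb), 0.19 (C1qc) and 0.20 (Cfp). Under TMM they became 0.11, 0.20, 0.08, 0.07 and 0.19 in KO, and 0.25, 0.42, 0.20, 0.01 and 0.22 in WT, in the order C1qa, C1qb, C1qc, C3ar1 and Cfp. Both scalings centre the median gene by construction. Under either one, 8 member intervals lay above 1 in KO and 7 in WT, with 0 below in both. The share of all genes with such intervals was not computed under these scalings. These counts therefore cannot be set against other genes and are no result about the members. Of the members, C5ar1 alone passed 2-fold higher, in KO and in WT. Over all genes, 1073 of 10992 did so in KO and 1050 of 10913 in WT with the median ratio. With TMM these were 1246 of 11983 and 1214 of 11966. With a 1.5-fold rule, 1 member was higher with LPS in each genotype, 2 were lower in KO without LPS and 1 with LPS. For KO over WT with LPS, 56.4% of the genes past 2-fold were higher in KO, against 66.7% on the CPM scale, 60.4% with equal sums, 56.2% with TMM, 49.7% with the median ratio and 46.4% with a pseudocount of 5. The interval counts were added as a result after the data were seen. No paired analysis was possible because each group has 1 library. At these depths genes such as C2, C8g and Cd59b rest on fewer than 10 counts per library, and no direction can be read for them from the intervals that hold 1.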
